A study of Homo sapiens with 6 samples.

Results

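Nucleotide excision repair is represented here by 10 genes, XPC, DDB1, DDB2, ERCC6, ERCC8, XPA, ERCC2, ERCC1, ERCC4 and ERCC5. They were taken by symbol, through the name columns that pair each Ensembl identifier with a symbol, from a table of 57905 genes, and all 10 had counts high enough to be among the 16565 genes tested. RNA-seq was performed on HCT116, a human colorectal carcinoma line used as a model of a wild-type p53 response. Nut 0h cells received DMSO, the drug vehicle. Nut 1h and Nut 10h cells received 10 µM Nutlin-3a, a small molecule that keeps HDM2 from binding p53, and were collected after 1 or 10 h. Each time point had 2 libraries described as biological replicates, 6 libraries in all, and the question asked of these genes was how their RNA differed after 1 and 10 h of p53 activation. Whether the replicates were separate cultures is not given in the sources used here, so the p-values measure the spread between these libraries. That spread was estimated partly from all tested genes.

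Nucleotide excision repair removes bulky lesions, such as the photoproducts made by ultraviolet light, by cutting out a short stretch of the damaged strand and copying the other strand. In global genome repair the lesion is found by XPC and by the DDB1-DDB2 heterodimer (UV-DDB), whereas in transcribed strands a stalled RNA polymerase II is recognised by ERCC6 (CSB) and ERCC8 (CSA). Both branches then use TFIIH, whose helicase ERCC2 (XPD) opens the duplex, XPA, which verifies the lesion, and the nucleases ERCC1-ERCC4 (XPF) and ERCC5 (XPG), which incise on either side. XPC and DDB2 are textbook targets of p53.

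The counts summed to between 26068076 and 35473485 per library, the lowest in Nut 1h replicate 2. MDM2, which encodes HDM2, had 1688 and 2083 normalised read counts in vehicle cells, 8694 and 8500 after 1 h, and 22630 and 27950 after 10 h, and so was higher at both time points. CDKN1A, the cell cycle inhibitor p21, rose 14.3-fold at Nut 10h, and at Nut 1h its log2 fold change was 0.05 (edgeR quasi-likelihood test, adjusted p = 0.704), or 0.71 with an offset for GC content (adjusted p = 3.32e-06). Of 6 colorectal epithelial markers, EPCAM, KRT8, KRT18, KRT19 and CDH1 were read in every library, whereas VIL1 had 0 to 10 counts. Their summed level was 5821 and 4943 CPM (counts scaled to the TMM-adjusted library size) in vehicle cells, 3379 and 3676 after 1 h, and 7445 and 6211 after 10 h, most of it from the keratins. At Nut 1h KRT8 (log2 fold change -0.71), KRT18 (-0.36) and KRT19 (-0.98) were called lower and EPCAM (0.46) and CDH1 (0.51) higher, and at Nut 10h KRT19 was called higher (0.87) and EPCAM lower (-0.32). Of the 7 markers of other cell types in the table, the leukocyte genes PTPRC and CD3E had 0 to 2 counts and DCN was listed at 0 in all 6 libraries. The summed level of these 7 genes moved with the time points, at 43.1 and 44.9 CPM in vehicle cells, 25.9 and 26.2 after 1 h, and 57.4 and 58.6 after 10 h, most of it from COL1A1 (23.7 to 42.2 CPM) and ACTA2 (1.34 to 21.0 CPM). At Nut 1h COL1A1 was called lower (-0.78), whereas at Nut 10h ACTA2 was called higher, by a log2 fold change of 3.22, and COL1A1 was at -0.16 without passing the test. The share of mitochondrial counts also moved, from 4.99% and 6.18% in vehicle cells to 8.15% and 8.44% after 1 h and 6.45% and 7.06% after 10 h. Their part in the results was not tested. In bulk libraries such as these, fewer cells of a type and less RNA per cell cannot be told apart.

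After 10 h of Nutlin-3a, the RNA of the lesion sensors DDB2 and XPC was close to 3 times that of vehicle cells, whereas 6 of the other 8 genes did not pass the test. Of the 10 genes, 4 passed the test upward against Nut 0h, namely DDB2, XPC, ERCC6 and ERCC4, where 14.1% of all tested genes were called higher. None passed it downward, where 14.9% of all tested genes were called lower. This count of 0 came from edgeR's quasi-likelihood test with Benjamini-Hochberg adjustment over all tested genes, with 0.05 as the limit for a call. It was also 0 at an unadjusted p under 0.05 and with DESeq2. The median log2 fold change was 0.26 over the 10 genes and 0.00 over all tested genes.

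**Figure D1:**
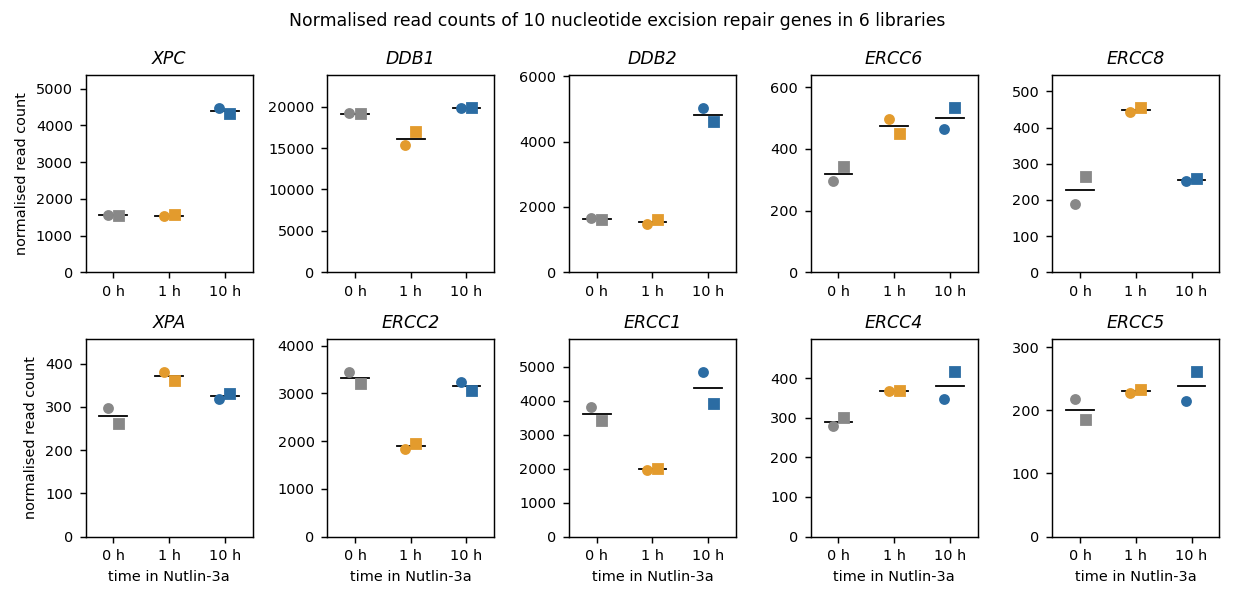
Normalised read counts of the 10 genes (vertical axes, linear, each from 0) against time in Nutlin-3a (0 h is vehicle). Circles are replicate 1, squares replicate 2 and lines the mean of both. XPC and DDB2 lie between 1466 and 1660 counts at 0 and 1 h and between 4314 and 5041 at 10 h, ERCC1 and ERCC2 are lowest at 1 h, and ERCC8 is highest at 1 h.

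DDB2 (ENSG00000134574, GRCh37 chr11:47236016-47260768, plus strand) encodes the subunit of UV-DDB that contacts the lesion. Its normalised read count, which is the count scaled to a common library size by the TMM method, was 1660 and 1599 in vehicle cells, 1466 and 1613 after 1 h and 5041 and 4609 after 10 h of Nutlin-3a. Both Nut 10h libraries lay far above the other 4, whereas the Nut 1h and Nut 0h libraries overlapped. DDB2 was 2.96-fold higher at Nut 10h than at Nut 0h, a log2 fold change of 1.57 ± 0.10 (SE, n = 2 per group; edgeR quasi-likelihood test, adjusted p = 2.91e-08). This change was larger than that of 98.0% of the tested genes. At Nut 1h the log2 fold change was -0.08 with a 95% interval of -0.29 to 0.12 and an adjusted p of 0.464 in the same edgeR fit. With an offset for GC content the value at Nut 1h was 0.075 (edgeR quasi-likelihood test, adjusted p = 0.456).

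XPC (ENSG00000154767, GRCh37 chr3:14186647-14220121, minus strand) encodes the damage sensor that recruits TFIIH in global genome repair. Its normalised read counts were 1571 and 1540 in vehicle cells, 1532 and 1549 after 1 h, and 4486 and 4314 after 10 h. As with DDB2, the 4 libraries at 0 and 1 h sat close together and both libraries at 10 h were apart from them. The rise at Nut 10h was 2.83-fold, a log2 fold change of 1.50 ± 0.09 (SE, n = 2 per group; edgeR quasi-likelihood test, adjusted p = 2.39e-08), and at Nut 1h the log2 fold change was -0.01 with a 95% interval of -0.21 to 0.18. The offset for GC content brought the value at Nut 1h to 0.15 (adjusted p = 0.0882 in the same test). XPC shares 24.6% of its exon bases with an antisense gene and 8.9% with another gene on the opposite strand. Both had 1 to 21 counts in any library, against 1231 to 4640 for XPC.

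The stretches around a start site of DDB2 and that of XPC, which rose together, are shown to compare their p53 motifs, with the p53 half-site consensus in capitals. The RefSeq windows of these genes (table build GRCh38.p14) each matched GRCh37 at a single place, and the printed part runs from 100 bases before the annotated start through the first 26 bases of the transcript.
DDB2, GRCh37 chr11:47236425-47236550, plus strand: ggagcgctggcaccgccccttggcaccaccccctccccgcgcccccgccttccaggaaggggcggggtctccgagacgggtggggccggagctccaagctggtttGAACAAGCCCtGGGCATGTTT
XPC, GRCh37 chr3:14220076-14220201, minus strand: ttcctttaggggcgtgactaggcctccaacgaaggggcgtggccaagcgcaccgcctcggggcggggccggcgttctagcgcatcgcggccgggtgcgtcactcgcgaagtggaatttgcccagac

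The DDB2 stretch held 2 half-sites with 1 base between them, together 21 bases at GRCh37 chr11:47236530-47236550, in the 5′ UTR within the first exon (47236525 to 47236814) of the Ensembl canonical transcript. The half-site consensus reads the same on both strands. The 10 genes have 14 RefSeq windows of 300 bases between them (250 before and 50 after a start), and 1 of them, this window of DDB2, held a half-site. DDB2 has another RefSeq window, at GRCh37 chr11:47235755-47236054, which held none. Among 35116 such windows of all genes, 6.63% held at least 1 half-site, and 10 windows (0.028%) held 2 within 13 bases of each other. The XPC window, like those of the other 8 genes, did not hold these letters. A match describes the sequence and is not evidence of binding.

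DDB1 (ENSG00000167986, GRCh37 chr11:61066923-61110068, minus strand) encodes the partner of DDB2, which also links substrates to the CUL4 ubiquitin ligases. It had the most reads of the 10 genes, with normalised read counts of 19230 and 19060 in vehicle cells, 15370 and 16920 after 1 h, and 19890 and 19880 after 10 h. The Nut 1h libraries were the lowest, and those at 10 h lay just above vehicle. After 10 h its log2 fold change was 0.05, with a 95% interval of -0.14 to 0.25 (edgeR quasi-likelihood test, adjusted p = 0.698). At Nut 1h DDB1 was 1.19-fold lower, a log2 fold change of -0.25 ± 0.09 (SE, n = 2 per group; edgeR quasi-likelihood test, adjusted p = 0.0287). This call did not hold without Nut 0h replicate 1 (adjusted p = 0.107), Nut 0h replicate 2 (0.0812) or Nut 1h replicate 1 (0.252), and with an offset for GC content, which is described with the 1 h results, the value was -0.13 (0.185). Of the DDB1 exon bases, 3.2% are shared with DAK on the opposite strand, which had 1614 to 4360 counts per library and was also lower at Nut 1h, by a log2 fold change of -0.89.

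Within a library, the ratio of counts of a gene pair needs no scaling for depth, although it moves with GC content where the genes differ in it. The ratio of DDB2 to DDB1 counts was 0.0863 and 0.0839 in vehicle cells, 0.0953 and 0.0954 after 1 h, and 0.254 and 0.232 after 10 h. For XPC against RAD23B, its abundant stabilising partner, it was 0.0956 and 0.0954 in vehicle cells, 0.0992 and 0.0951 after 1 h, and 0.314 and 0.311 after 10 h. In both pairs the libraries at 10 h were apart from the rest, so each sensor had more reads relative to its partner at 10 h. With an offset for GC content, XPC was at 0.15 and RAD23B at -0.59 on the log2 scale at Nut 1h (edgeR quasi-likelihood test, adjusted p = 0.0882 and 2.05e-05). The flat ratio of XPC to RAD23B at 1 h thus did not remain. With the same offset DDB2 was at 0.075 and DDB1 at -0.13. The ratios are of reads and not of molecules, since the genes differ in length.

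**Figure D2:**
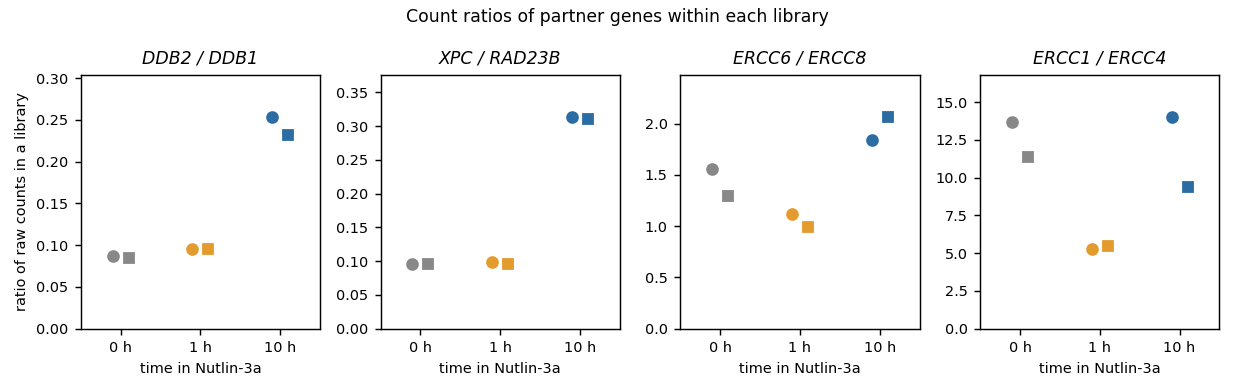
Ratios of raw counts between partner genes within each library (vertical axes, from 0) against time in Nutlin-3a. Circles are replicate 1 and squares replicate 2. DDB2/DDB1 and XPC/RAD23B are highest in both libraries at 10 h, and ERCC1/ERCC4 is lowest in both libraries at 1 h, a dip that was not there with the GC-content offset (log2 fold changes of -0.34 and -0.32).

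In transcription-coupled repair, ERCC6 was higher at both time points and ERCC8 at 1 h, and neither call at 1 h held with an offset for GC content. ERCC6 (ENSG00000225830, GRCh37 chr10:50662214-50747584, minus strand) encodes the ATPase that binds the stalled polymerase. Its normalised read counts were 295 and 342 in vehicle cells, 498 and 449 after 1 h, and 463 and 534 after 10 h, with both vehicle libraries below the other 4. At Nut 10h it was 1.57-fold higher, a log2 fold change of 0.65 ± 0.13 (SE, n = 2 per group; edgeR quasi-likelihood test, adjusted p = 0.00149), and at Nut 1h 1.49-fold, a log2 fold change of 0.57 ± 0.13 (adjusted p = 0.00118). With the offset the change was 0.62 after 10 h and -0.19 after 1 h (adjusted p = 0.129). An offset for transcript length also ended the call at 1 h, at 0.16 (adjusted p = 0.201).

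ERCC8 (ENSG00000049167, GRCh37 chr5:60162281-60240900, minus strand) encodes the adaptor of a CUL4 ubiquitin ligase at stalled polymerases. It had 189 and 265 normalised read counts in vehicle cells, 445 and 456 after 1 h, and 251 and 259 after 10 h. Only the Nut 1h libraries stood apart, and those at 10 h lay between the vehicle replicates. ERCC8 was 1.98-fold higher at Nut 1h, a log2 fold change of 0.98 ± 0.15 (SE, n = 2 per group; edgeR quasi-likelihood test, adjusted p = 4.49e-05), and at Nut 10h the difference was 0.17, with a 95% interval of -0.16 to 0.49. The offset for GC content brought the value at Nut 1h to 0.20 (adjusted p = 0.207). The ratio of ERCC6 to ERCC8 counts was 1.56 and 1.29 in vehicle cells, 1.12 and 0.986 after 1 h, and 1.84 and 2.06 after 10 h.

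The genes of lesion verification and opening did not pass the test at 10 h. XPA (ENSG00000136936, GRCh37 chr9:100437191-100459622, minus strand), the scaffold of the preincision complex, had 298 and 260 normalised read counts in vehicle cells, 381 and 360 after 1 h, and 319 and 329 after 10 h. The groups did not overlap, with vehicle lowest and Nut 1h highest. The log2 fold change of XPA at Nut 10h was 0.22, with a 95% interval of -0.05 to 0.48 (edgeR quasi-likelihood test, adjusted p = 0.207), and at Nut 1h it was 0.41 ± 0.12 (SE, n = 2 per group; adjusted p = 0.00905). The call at Nut 1h was lost with DESeq2 (adjusted p = 0.105) and without Nut 0h replicate 2 (0.0854) or Nut 1h replicate 1 (0.0766), and the GC-content offset turned the value to -0.15 (adjusted p = 0.315).

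ERCC2 (ENSG00000104884, GRCh37 chr19:45853095-45874176, minus strand) had 3453 and 3187 normalised read counts in vehicle cells, 1842 and 1934 after 1 h, and 3247 and 3045 after 10 h. Its Nut 1h libraries were far below the rest, and those at 0 and 10 h overlapped. ERCC2 was 1.76-fold lower at Nut 1h, a log2 fold change of -0.81 ± 0.09 (SE, n = 2 per group; edgeR quasi-likelihood test, adjusted p = 4.15e-06), which became 0.00 with the GC-content offset (adjusted p = 0.981). At Nut 10h the log2 fold change was -0.08, with a 95% interval of -0.27 to 0.12. KLC3, which overlaps 7.7% of the ERCC2 exon bases from the opposite strand, was also lower at Nut 1h, by a log2 fold change of -1.46, with 319 to 1272 counts per library.

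Among the nucleases, ERCC4 was higher at 10 h by a call that depended on single libraries, and ERCC1 and ERCC5 did not pass the test. ERCC1 (ENSG00000012061, GRCh37 chr19:45910592-45982086, minus strand), the DNA-binding partner of the ERCC4 nuclease, had 3807 and 3395 normalised read counts in vehicle cells, 1950 and 2000 after 1 h, and 4851 and 3904 after 10 h. Every Nut 10h value exceeded every vehicle value, and the Nut 1h values were the lowest. The fall at Nut 1h was 1.82-fold, a log2 fold change of -0.87 ± 0.11 (SE, n = 2 per group; edgeR quasi-likelihood test, adjusted p = 1.2e-05), and it also passed with the GC-content offset, at -0.34 (adjusted p = 0.00221). At Nut 10h the log2 fold change was 0.28 ± 0.11 (adjusted p = 0.0699). It passed with the GC-content offset at 0.25 (adjusted p = 0.0141), with the length offset (0.0435), with upper-quartile scaling (0.0325), and without Nut 10h replicate 2, the lower of the pair, at 0.45 (adjusted p = 0.00391), and it was 0.12 without Nut 10h replicate 1 (adjusted p = 0.504). CD3EAP, which lies over 28.6% of the ERCC1 exon bases on the opposite strand, had 493 to 642 counts per library against 1589 to 5018 for ERCC1, and its log2 fold changes were 0.30 at Nut 1h and -0.01 at Nut 10h.

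ERCC4 (ENSG00000175595, GRCh37 chr16:14013995-14046205, plus strand), the nuclease that cuts 5′ of the lesion, had 278 and 300 normalised read counts in vehicle cells, 368 and 366 after 1 h, and 346 and 416 after 10 h. Both vehicle libraries were below the other 4. It was 1.32-fold higher at Nut 10h, a log2 fold change of 0.40 ± 0.13 (SE, n = 2 per group; edgeR quasi-likelihood test, adjusted p = 0.029). That call was lost with DESeq2 (adjusted p = 0.12), with no filter on low counts (0.0567), without Nut 0h replicate 1 (0.128) or Nut 10h replicate 2 (0.203, log2 fold change 0.27), and without either Nut 1h library (0.0597 and 0.0617), which enter through the estimate of spread. At Nut 1h the log2 fold change was 0.35 ± 0.13 (adjusted p = 0.0282), which the GC-content offset turned to -0.32 (adjusted p = 0.0189) and which lost its call with DESeq2 (0.191), with the length offset (0.348, log2 fold change 0.13), with no filter on low counts (0.0777) and without Nut 0h replicate 1 (0.128), Nut 1h replicate 1 (0.113) or Nut 1h replicate 2 (0.104). An antisense noncoding gene that shares 14.1% of the ERCC4 exon bases had 0 to 3 counts.

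ERCC5 (ENSG00000134899, GRCh37 chr13:103498181-103528345, plus strand), the nuclease that cuts 3′ of the lesion, was the least sampled gene, with 185 to 281 raw counts. Its normalised read counts were 217 and 185 in vehicle cells, 228 and 233 after 1 h, and 215 and 262 after 10 h, and the vehicle and 10 h libraries overlapped. Its change after 10 h was 0.24 on the log2 scale, with a 95% interval of -0.07 to 0.56 (edgeR quasi-likelihood test, adjusted p = 0.237), and after 1 h 0.20, with a 95% interval of -0.13 to 0.52 (adjusted p = 0.265). ERCC5 shares 33.0% of its exon bases with the readthrough gene BIVM-ERCC5 on the same strand, which had 0 or 1 counts, so reads common to both cannot be placed from these counts. The ratio of ERCC1 to ERCC4 counts was 13.7 and 11.3 in vehicle cells, 5.30 and 5.46 after 1 h, and 14.0 and 9.38 after 10 h. The GC-content offset gave ERCC1 and ERCC4 log2 fold changes of -0.34 and -0.32 at Nut 1h, so that the lower ratio at 1 h did not remain.

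Levels of different genes were set side by side per length, as CPM per kb of merged exons. At Nut 0h the order of these levels was DDB1 (37.4 ± 0.23, SD, n = 2), ERCC1 (19.6 ± 1.58), ERCC2 (14.5 ± 0.82), DDB2 (10.2 ± 0.27), XPC (10.2 ± 0.14), XPA (4.65 ± 0.44), ERCC4 (0.552 ± 0.029), ERCC5 (0.552 ± 0.063), ERCC6 (0.417 ± 0.044) and ERCC8 (0.260 ± 0.061). The libraries of DDB2 and XPC overlapped, as did those of ERCC4 and ERCC5, so these neighbours in the order did not differ beyond their spread. At Nut 10h the level was 30.2 ± 1.9 for DDB2 and 28.7 ± 0.79 for XPC, both above ERCC1 at 23.8 ± 3.6 and below DDB1 at 38.8 ± 0.016. This order depended on the length used. Over the longest transcript the vehicle levels were 118 for DDB1, 24.5 for ERCC2, 15.9 for DDB2 and 12.9 for XPC, in the same order but with DDB2 and XPC further apart. Over the Ensembl canonical transcript, an alternative chosen after seeing the data, they were 137 for DDB1, 27.2 for DDB2, now above ERCC2 at 24.5, and 12.9 for XPC. Over either length XPC at Nut 10h was 36.5 ± 1.0 and ERCC1 39.2 ± 6.0, so that XPC was no longer above ERCC1.

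After 1 h of Nutlin-3a, the 10 genes moved in opposite directions, ERCC8, ERCC6, XPA and ERCC4 upward and ERCC1, ERCC2 and DDB1 downward, while DDB2, XPC and ERCC5 did not pass the test. With the GC-content offset the fold changes of 6 of the 10 genes had the opposite sign, among them the called ERCC6, XPA and ERCC4. The 4 called higher stand beside 34.5% of all tested genes and the 3 called lower beside 32.3%, and the median log2 fold change was 0.09 over the 10 genes and 0.05 over all tested genes (edgeR quasi-likelihood test). The direction at this time point followed the GC content of the transcripts in the whole table. Of the tested genes 97.4% had a GC content, taken from the longest transcript, and the median log2 fold change at Nut 1h fell from 0.79 in 2609 genes under 40% GC to -1.12 in 2431 genes at 60% or more. After 10 h the same bands had medians of 0.03 and -0.08.

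Set out by GC content, the genes were ERCC8 (37.7%), ERCC6 (38.2%), ERCC4 (40.4%), XPA (42.4%), ERCC5 (44.0%), DDB1 (51.4%), DDB2 (51.9%), XPC (51.9%), ERCC1 (56.2%) and ERCC2 (60.0%). The 4 genes called higher at Nut 1h were the 4 with the lowest GC content, and the 2 with the largest falls had the highest. With a smooth offset for GC content in each library, 2 of the 10 genes passed the test at Nut 1h, ERCC1 and ERCC4, both lower, where 25.5% of all genes with a GC content were called lower and 19.7% higher. After 10 h the largest shift under the same offset was 0.06 on the log2 scale, with 1.51 for DDB2 and 1.45 for XPC, and 5 of the 10 genes were called higher, beside 16.8% of all genes with a GC content. Why GC content and the 1 h change move together was not tested.

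**Figure D3:**
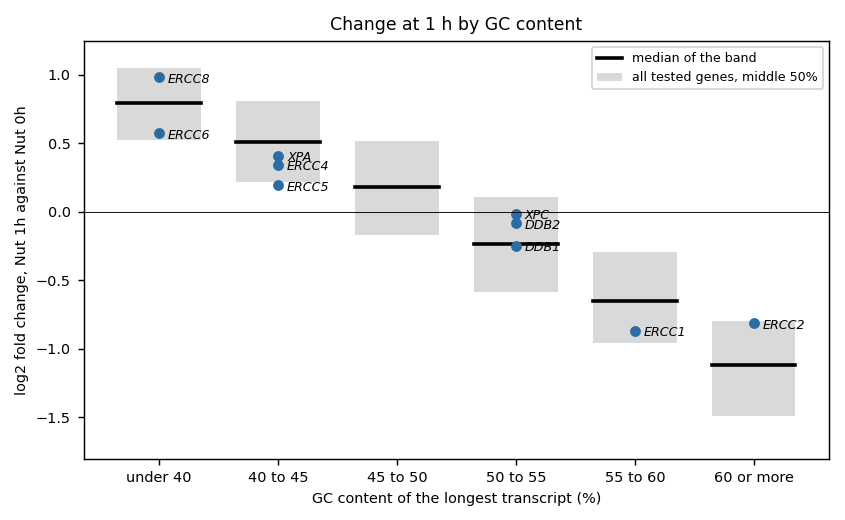
Log2 fold change at Nut 1h against Nut 0h (vertical axis) by GC content of the longest transcript (horizontal axis, bands in percent). Grey boxes span the middle 50% of all tested genes in a band, black lines are the band medians, and points are the 10 genes. The band medians fall from 0.79 to -1.12, and 9 of the 10 genes lie inside the box of their band, ERCC5 just below it.

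**Figure D4:**
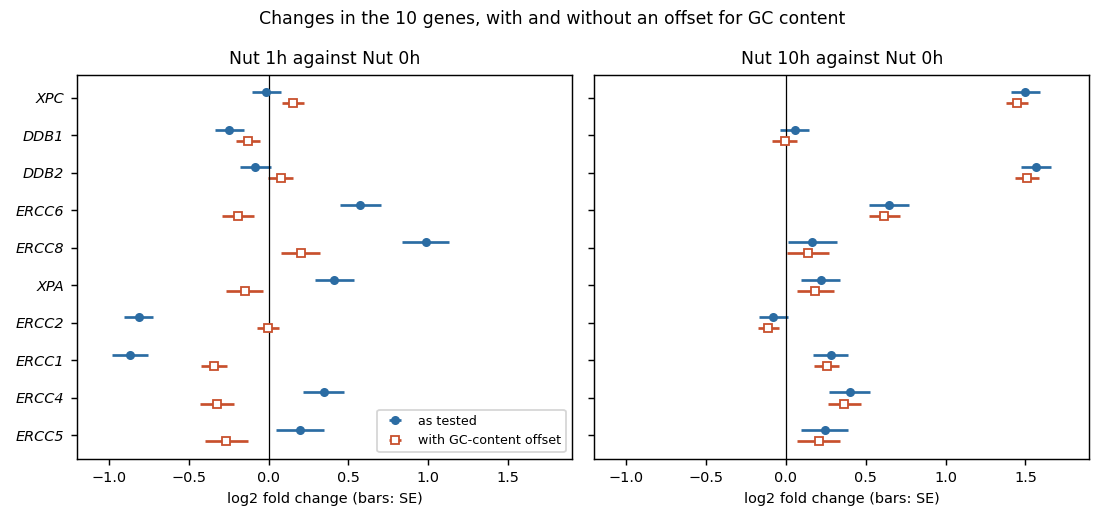
Log2 fold changes of the 10 genes with standard errors (horizontal bars) at Nut 1h (left) and Nut 10h (right) against Nut 0h. Filled circles are the values as tested and open squares those with the GC-content offset. At 1 h the circles spread from -0.87 to 0.98 and the squares from -0.34 to 0.20, whereas at 10 h both give about 1.5 for XPC and DDB2.

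The 2 treated groups were also compared with each other. That contrast equals the difference between the 10 h and 1 h changes, because both use the same Nut 0h libraries. In this comparison 5 of the 10 genes were higher at Nut 10h, beside 34.2% of all tested genes, and 1 was lower, beside 33.7% (edgeR quasi-likelihood test), so that 6 of the 10 were called in either direction where 67.9% of all tested genes were. DDB2 was 3.14-fold higher (log2 fold change 1.65 ± 0.10, SE, n = 2 per group; adjusted p = 6.98e-09) and XPC 2.86-fold higher (1.51 ± 0.09; adjusted p = 7.47e-09). ERCC1 (1.15), ERCC2 (0.74) and DDB1 (0.30) were higher and ERCC8 (-0.82) was lower. The GC-content offset kept ERCC1 at 0.59 (adjusted p = 5.46e-06) but not ERCC2 (-0.11, adjusted p = 0.192), DDB1 (0.12, adjusted p = 0.19) or ERCC8 (-0.06, adjusted p = 0.697), and without Nut 1h replicate 1 DDB1 also lost its call (adjusted p = 0.136). With the offset, ERCC6 (0.81), ERCC4 (0.69), ERCC5 (0.47) and XPA (0.33) passed upward instead. Together with DDB2, XPC and ERCC1, also called higher with it, they stand beside 29.2% of all genes with a GC content. With the length offset XPA passed downward, at -0.47 (edgeR quasi-likelihood test, adjusted p = 0.00236), and ERCC6 upward, at 0.36 (adjusted p = 0.00691).

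Other genes of the pathway were taken from 6 lists that together hold 39 genes, all of which were tested. At Nut 10h, 19 of the 39 fell and 2 rose against Nut 0h, with a median log2 fold change of -0.29, beside 14.9% and 14.1% of all tested genes (edgeR quasi-likelihood test). Of these falls, 14 were among the 18 gap filling and ligation genes, of which 1 rose, with a median of -0.76. All 3 RPA genes, which encode the complex that covers the undamaged strand, fell, RPA2 by 0.94, RPA1 by 0.66 and RPA3 by 0.43 on the log2 scale.

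The largest falls among the 39 were in POLE2, a subunit of DNA polymerase epsilon, POLD3, a subunit of DNA polymerase delta, and RFC4, a subunit of the clamp loader. POLE2 had 759 and 871 normalised read counts in vehicle cells and 264 and 280 after 10 h, a log2 fold change of -1.58 ± 0.11 (SE, n = 2 per group; edgeR quasi-likelihood test, adjusted p = 1.33e-07). POLD3 had 712 and 733 in vehicle cells and 227 and 279 after 10 h (log2 fold change -1.51), and RFC4 had 1799 and 1939 and then 666 and 646 (log2 fold change -1.51). In all 3 genes the Nut 10h libraries were far below vehicle. PCNA, the sliding clamp of repair synthesis, had 9576 and 9386 normalised read counts in vehicle cells and 9955 and 9576 after 10 h, a difference of 0.04 on the log2 scale (adjusted p = 0.764). These genes also serve DNA replication, and these libraries do not give the share of cells in S phase.

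The genes whose products work beside DDB2 and XPC did not pass the test upward at 10 h. Of the XPC partners at Nut 10h, RAD23B had a log2 fold change of -0.21 (edgeR quasi-likelihood test, adjusted p = 0.0957) and CETN2 one of 0.14 (adjusted p = 0.391). None of the 3 CUL4 ligase genes (CUL4A, CUL4B and RBX1, -0.17 to -0.13) or of the 9 other TFIIH subunits (-0.21 to 0.11) was called by edgeR at Nut 10h without an offset, nor by DESeq2. At an unadjusted p under 0.05, 0 of the 3 and 1 of the 9, ERCC3, were below. In the other transcription-coupled factors UVSSA rose (0.36), ELOF1 (-0.38) and TCEA1 (-0.29) fell, and XAB2 was at -0.29 without passing the test. The call of UVSSA was lost with the length offset (adjusted p = 0.121) and without Nut 0h replicate 1 (0.147) or Nut 10h replicate 1 (0.0529), and that of ELOF1 without Nut 0h replicate 1 (0.137) or Nut 10h replicate 2 (0.0966). The call of TCEA1 was lost with upper-quartile scaling (0.0708), without the Nut 1h libraries (0.0733) and without any single library other than Nut 0h replicate 1 (0.0596 to 0.292). XAB2 was called lower without Nut 0h replicate 2 (0.0384) or Nut 10h replicate 1 (0.0116). With no filter on low counts XAB2 (0.0069) and RAD23B (0.0418) were called lower. With the GC-content offset RAD23B (-0.24, adjusted p = 0.0284), ERCC3 (-0.26, adjusted p = 0.00715) and XAB2 (-0.32, adjusted p = 0.00301) were called lower at Nut 10h, beside 23.0% of all genes with a GC content.

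**Figure D5:**
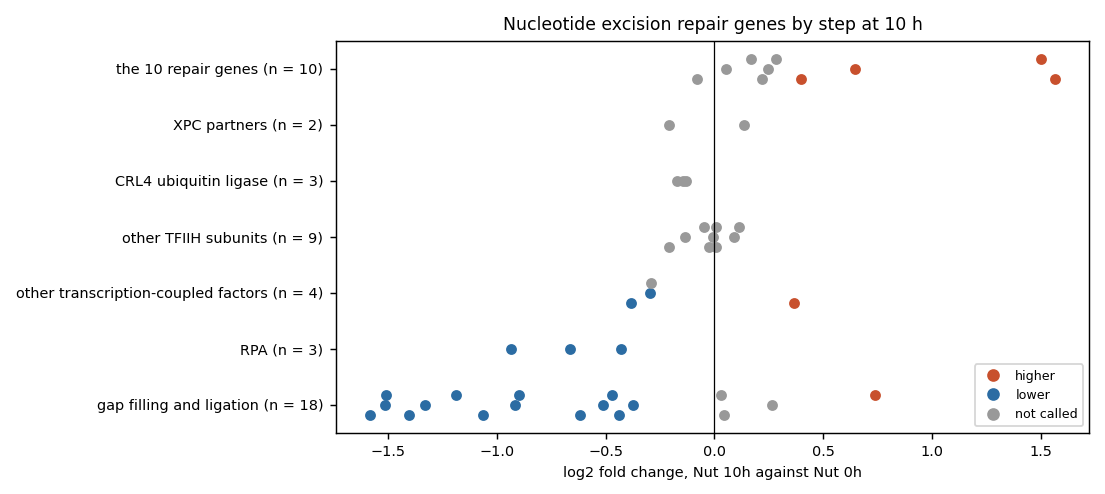
Log2 fold change at Nut 10h against Nut 0h (horizontal axis) of the 10 repair genes and the 39 other genes of the pathway by list (vertical axis, points offset to separate them). Colours mark genes called higher, called lower or not called at an adjusted p of at most 0.05. XPC and DDB2 are the 2 points at 1.5 and above, and the RPA and gap filling genes reach from -1.58 to 0.74.

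At Nut 1h, 19 of the 39 were higher and 10 lower, beside 34.5% and 32.3% of all tested genes, and with the GC-content offset 6 were higher and 13 lower, beside 19.7% and 25.5% of all genes with a GC content. The largest changes with groups that did not overlap were in GTF2H4 (-1.37, from 20 counts in each vehicle library to 6 and 7 after 1 h), POLD4 (-1.13, and -0.42 with the offset) and GTF2H2 (1.13, and 0.44 with the offset), a TFIIH subunit gene whose reads are uncertain because the near-identical copies GTF2H2B and GTF2H2C are counted separately. With the offset the largest change among the 39 was in RBX1 (-1.60, and -1.07 without it), named after its values were seen. POLD4 lost its call with the offset and the replicate block together (adjusted p = 0.0546). The call of GTF2H4 (edgeR quasi-likelihood test, adjusted p = 0.0157) was lost with DESeq2 (0.138), with the GC-content offset (0.176) and without Nut 0h replicate 1 (0.0733), Nut 0h replicate 2 (0.06) or Nut 1h replicate 1 (0.165). PCNA was higher by 0.36 at Nut 1h (adjusted p = 0.00262), with an adjusted p of 0.0541 without Nut 1h replicate 2, and was at -0.015 with the offset. Between Nut 10h and Nut 1h, 7 of the 39 were higher and 25 lower, beside 34.2% and 33.7% of all tested genes, and the largest changes were in RFC4 (-2.19), POLD3 (-2.17) and POLE2 (-1.94), with PCNA at -0.32, a call lost without Nut 1h replicate 2 (adjusted p = 0.0865) or Nut 10h replicate 2 (0.0967). With the offset 9 were higher and 21 lower in this comparison, beside 29.2% and 28.7% of all genes with a GC content, and the sign turned for 17 of the 39, of which 11 were called without the offset and 6 both with and without it, in opposite directions.

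The genes whose levels most resembled those of DDB2 and XPC were sought among all tested genes, by Euclidean distance over the 6 log2(CPM + 1) values centred on the vehicle mean. Nearest to DDB2 were RP3-510D11.2, then XPC, FAM210B, EEF1A1P6 and FHL2, at distances of 0.129 to 0.247. Nearest to XPC were FHL2, then DDB2, FAM210B, PRKAB1 and SEMA3G, at 0.128 to 0.209. DDB2 and XPC were thus each the second nearest of the other, at a distance of 0.167 and over 6 libraries of a single experiment. The log2 fold change of the other genes at Nut 10h was between 1.42 and 2.95, and RP3-510D11.2, at 1.38 CPM on average, lies close to the 1 added before the log, which shrinks its change in this measure.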

How the data were processed

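RNA-seq counts of 6 HCT116 libraries were analysed. Per the submitters' processing notes and the methods, reads were trimmed with Trim Galore 0.6.6, aligned to GRCh37.p13 with STAR 2.7.0f and counted with featureCounts of Subread 2.0.0. The deposited counts are raw read counts per gene, not normalised, and all 57905 rows name a gene. The strand setting and the treatment of reads mapping to several places are not given in the sources used here, so overlapping genes are uncertain. A deposited table of the authors' own comparisons holds fold changes and p-values. Only its name columns were used.

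Groups followed the sample labels. Genes were filtered with filterByExpr (16565 kept), TMM-normalised and tested with the quasi-likelihood test of edgeR 4.0.16 (limma 3.58.1, R 4.3.3) over all 6 libraries with the group as the only term and Benjamini-Hochberg adjustment. DESeq2 1.42.0 was an alternative. Standard errors came from the fold change and F statistic. The script was tested on simulated data. Offsets for GC content and length were loess trends per library (span 0.4). Coordinates, lengths and GC content came from GENCODE v44lift37, and start-site windows from RefSeq. Figures were drawn with matplotlib. The libraries of a group differed by more than sampling noise (chi-square per degree of freedom of 4.93 to 16.0).

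The 10 genes and all lists were chosen with earlier results of these data known. Named besides the 10 were, per comparison, up to 3 other pathway genes with the largest called change and groups that did not overlap, with PCNA, CDKN1A and MDM2, genes overlapping the 10 and the 5 nearest to DDB2 and to XPC. Other genes were named after their values were seen. An item withheld from this text is not reported here and was left out of the pathway lists and their counts.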

Additional observations from a re-analysis of the deposited data

Results flagged for a closer look

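For 6 of the 10 genes the change against vehicle differed between the 10 h and 1 h time points by the test of the difference itself (edgeR quasi-likelihood test, Benjamini-Hochberg adjustment, n = 2 per group), where 67.9% of all tested genes did. Both changes used the same Nut 0h libraries, so time in culture and time in Nutlin-3a cannot be told apart. The change at 10 h minus that at 1 h was 1.65 on the log2 scale for DDB2 (adjusted p = 6.98e-09), 1.51 for XPC (7.47e-09), 1.15 for ERCC1 (7.36e-07), 0.74 for ERCC2 (8.54e-06), 0.30 for DDB1 (0.00983) and -0.82 for ERCC8 (0.000193). In each of these genes both libraries of one time point lay beyond both of the other. With the GC-content offset the difference was 1.44 for DDB2, 1.30 for XPC and 0.59 for ERCC1, and it did not pass the test for ERCC2 (-0.11), DDB1 (0.12) and ERCC8 (-0.06). Groups of 2 are too small to look for a single library that departs from its group.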

How the results depend on the processing

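DDB2 and XPC at Nut 10h against Nut 0h kept their direction and their call under all 17 alternatives, with log2 fold changes of 1.50 to 1.64 and 1.45 to 1.55. Over the 10 genes, 157 of 170 values at Nut 10h against Nut 0h kept their side of the threshold and, where called, their direction. This held for 133 of 160 at Nut 1h against Nut 0h and 143 of 160 between the treated groups. Values that stayed uncalled but changed sign are counted among these. With the GC-content offset, 2 of the 10 genes were called at Nut 1h in place of 7, 0 of them higher in place of 4, 19 of the other 39 called in place of 29 and 6 of them higher in place of 19, with 3180 of all tested genes higher in place of 5722 and 4109 lower in place of 5355. The sign of the fold change turned for 6 of the 10 genes and 23 of the 39 at Nut 1h, of which 3 and 16 were called without it. Among the values given here that turned and were called with or without it were ERCC6 (-0.19), XPA (-0.15), ERCC4 (-0.32) and PCNA (-0.015) at Nut 1h, and XPA (0.33), ERCC2 (-0.11) and PCNA (0.021) between the treated groups, where 0 genes in place of 1 were lower. The length offset left 2 of the 10 higher at Nut 1h, 2 lower between the treated groups and 1 of the 39 higher at Nut 10h. These counts are not set beside a share of all tested genes, and so describe the listed genes only. DESeq2 called 2 of the 10 higher at Nut 1h, with the calls of XPA and ERCC4 lost. This count also stands without a share of all tested genes, and so describes the 10 genes only. At an adjusted p of at most 0.01, 1 of the 39 was higher at Nut 10h and 4 between the treated groups, with 1421 of all tested genes higher and 1559 lower at Nut 10h. The cause of these shifts was not tested.

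Same-numbered replicates deviated together between Nut 0h and Nut 10h (r across genes of 0.45) but not between Nut 1h and either of them (-0.31 and -0.28), so the numbers were not read as pairs. With the replicate number as a block, 7, 4 and 6 of the 10 genes were called in the 3 comparisons, as without it. These counts, and those of the 10 and the other 39 that follow, stand without a matching share of all tested genes. They thus describe the listed genes only, and whether they depart from the whole table was not tested. Leaving out a library also leaves 1 in its group. The block with the GC-content offset called 2 of the 10 at Nut 1h (0 higher), 17 of the other 39 (6 higher) and 3040 of all genes higher, and 0 of the 10 lower between the treated groups, with ERCC6 at -0.189, XPA at -0.151, ERCC4 at -0.32 and PCNA at -0.014 at Nut 1h and XPA at 0.337, ERCC2 at -0.107 and PCNA at 0.019 between the treated groups. Leaving out each library in turn gave 4 to 7 of the 10 called at Nut 1h (2 to 4 higher, 2 to 3 lower), 3 to 4 at Nut 10h and 5 to 6 between the treated groups. Of the other 39, 1 to 2 were higher at Nut 10h and 4 to 9 between the treated groups, and 1641 to 2528 of all tested genes were lower at Nut 10h, the lowest without Nut 0h replicate 1.

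ERCC4, ERCC5, ERCC6, ERCC8 and XPA had at most 574 counts in a library, and the 95% intervals of their log2 fold changes at Nut 10h were wider than those of the other 5 genes.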
